A study of Mus musculus with 6 samples.

Results

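The genes described here are 10 mouse genes of the AP-1 and immediate early response: Fos, Fosb, Fosl1, Fosl2, Jun, Junb, Jund, Egr1, Atf3 and Ier3. They were chosen by name, and each was found through array probes whose RefSeq accession maps to its symbol. All 10 had a probe, 11 probes in all, among 20013 named genes on the array, and Fosl2 was the member with more than 1 probe. RNA was hybridised to 1-colour Agilent mouse expression arrays, 2 arrays for each of 3 groups.

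The first group was muscle-derived stem cells (MDSC) labelled Mstn-null, from mice without functional myostatin, a secreted inhibitor of muscle growth. The second was MDSC from wild-type (WT) mice. Both came from hindlimb muscle of male mice aged 5 weeks, as the slowly adhering preplate fraction 6 collected on day 4, and were taken at passage 1 after growth in 10% fetal bovine serum and 10% horse serum. Each MDSC array was labelled as a separate isolation. The third group was W4, a mouse embryonic stem cell (ESC) line, at passage 12 and at passage 15, so the ESC arrays were passages of 1 line and not separate lines. All cultures were taken at 70% confluence, and none was treated. The labels did not name the Mstn allele, and they called the ESC colonies feeder free, whereas the growth protocol described mouse embryonic fibroblast feeders and a plating step of 20 min to remove them. P-values measure the spread between these arrays.

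AP-1 is a family of dimeric transcription factors in which a Fos protein pairs with a Jun protein, or Jun proteins pair with each other, through leucine zippers. Fos, Fosb, Jun, Junb, Egr1, Atf3 and Ier3 are known as immediate early genes: serum, growth factors and stress switch them on within minutes without new protein synthesis, through kinases that act on serum response factor, its partners and CREB, and the messages decay quickly. Fosl1 and Fosl2 encode Fos proteins without the strong activation domain of Fos and usually follow it in time. In muscle, AP-1 proteins have been linked to the proliferating state of myoblasts, and Jun can hold back MyoD.

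A level is the log2 of a probe's processed signal relative to the 75th percentile of its array, so it can be compared between arrays for 1 probe and not between probes. A difference was called where the limma p-value, adjusted by Benjamini-Hochberg over 25055 tested genes and unnamed features, was under 0.05. All 10 genes were well above background on all 6 arrays and all 10 were tested. Arrays of 1 group correlated at 0.977 to 0.987 over the tested features, and 53.3% to 64.6% of spots were well above background. The WT arrays lay on 1 slide and the other 4 arrays on another, so slide and WT genotype cannot be told apart, whereas Mstn-null MDSC and ESC were compared within a slide. The pluripotency markers were at a mean level of -3.50 to -3.22 in MDSC, against 4.63 and 4.78 in ESC. Of these 10 markers, 9 were called lower in MDSC, beside 31.4% of all features. Nanog was called higher, by 0.56 (limma adjusted p = 0.0185). Its probe was at -0.77 and -0.66 in ESC and at -0.20 to -0.07 in MDSC. Whether that probe reports Nanog alone was not tested. On each MDSC array 6 or 7 of the 10 were well above background, against 10 on each ESC array. Myogenic progenitor markers were called in both directions in MDSC, 5 higher and 1 lower of 10 tested, beside 28.3% and 31.4% of all features. Vcam1 and Sdc3 were higher by 4.62 and 3.06, and Six4 was lower, with a difference of -1.62. Myf5 and Pax7 of the same list are named besides the called genes. Myod1, also listed, passed the background test in every MDSC culture and in neither ESC passage, and Myf5 passed on no array. Pax7 passed it on the array of WT isolation 1 and at the earlier ESC passage, and failed it on all other arrays. The Mstn probe passed that test on the 2 arrays labelled Mstn-null and failed it on the WT arrays. Its place relative to the deleted part is not given, so it does not check the label.

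Fosl2, Junb and Ier3 were higher in MDSC than in ESC by 5.73-fold to 13.9-fold. These were the members whose difference was called under every alternative tried, of processing, model or arrays used. Egr1, Fosl1 and Fos were also called higher, by 7.37-fold, 5.03-fold and 12.6-fold. Thus 6 of 10 genes were higher and 0 were lower, where 28.3% of all tested features were higher and 31.4% were lower. The median difference of the 10 genes was 2.70 on the log2 scale, beside -0.03 for all tested features. In whole cultures, a smaller share of expressing cells and less RNA per cell cannot be told apart.

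**Figure D1:**
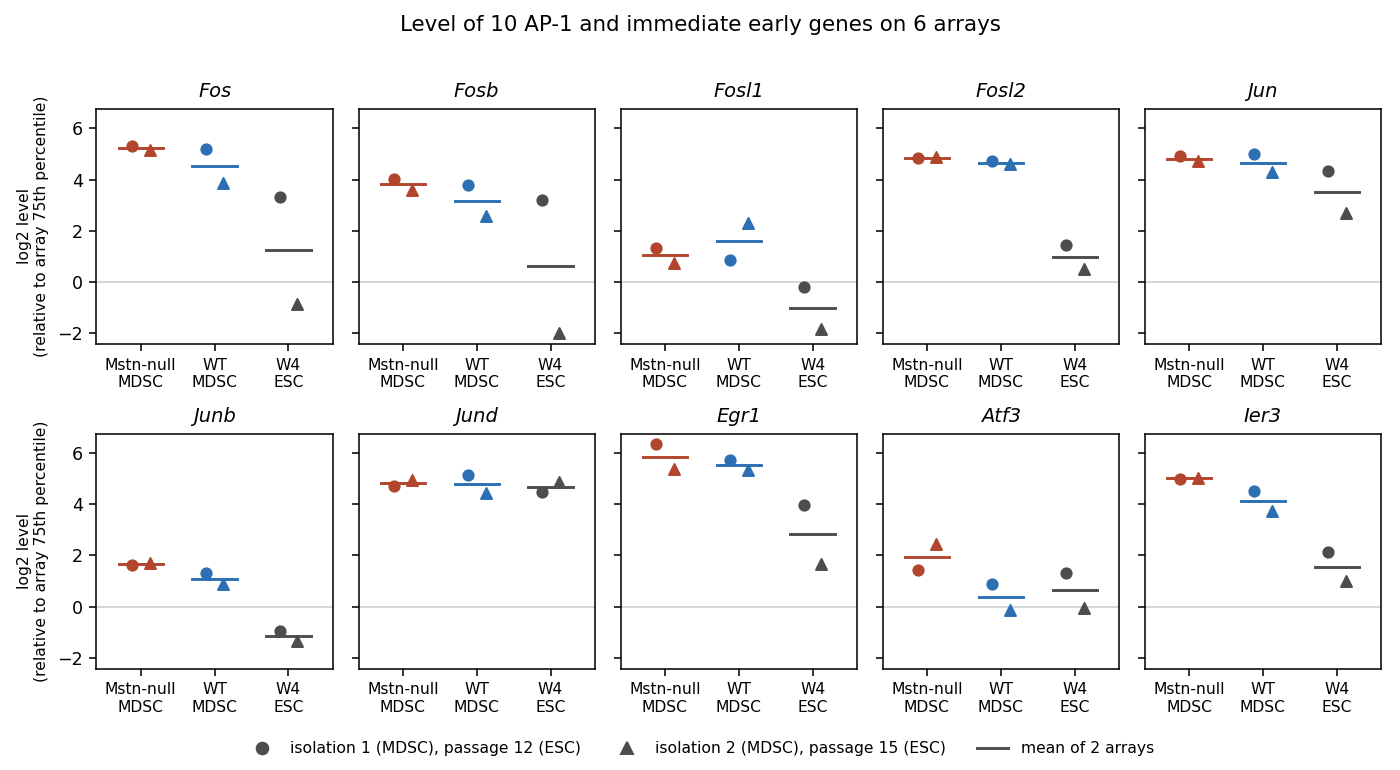
Level of each gene on each array (y axis, log2 signal relative to the array's 75th percentile), with 2 arrays for each of Mstn-null MDSC, WT MDSC and W4 ESC and bars at group means. Fos, Fosl1, Fosl2, Junb, Egr1 and Ier3 have every MDSC array above both ESC arrays. Fos and Fosb lie far apart between the ESC passages. Levels are comparable within a panel.

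Fosl2 and Junb showed the smallest spread relative to their difference. Fosl2 was at 4.85 and 4.87 in Mstn-null MDSC, at 4.74 and 4.59 in WT MDSC, and at 1.44 and 0.49 in ESC. MDSC exceeded ESC by 3.80 ± 0.29 on the log2 scale (SE; adjusted p = 7.58e-04). All MDSC arrays lay within a narrow band far above both ESC arrays. A dimmer Fosl2 probe gave -3.05 to -2.60 in MDSC, against -4.91 and -3.97 in ESC, and was not well above background at passage 12. It ran in the same direction, and averaging both probes gave a difference of 2.69.

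Junb, which encodes a Jun protein that often restrains Jun, was at 1.61 and 1.69 in Mstn-null MDSC, at 1.30 and 0.88 in WT MDSC, and at -0.96 and -1.33 in ESC. The difference between MDSC and ESC was 2.52 ± 0.20 (SE; adjusted p = 7.99e-04). Ier3, an early response gene that modulates survival and ERK signalling, was at 5.00 and 5.05 in Mstn-null MDSC, at 4.51 and 3.75 in WT MDSC, and at 2.14 and 0.98 in ESC. It differed by 3.02 ± 0.40 (SE; adjusted p = 0.0031). For both genes the 4 MDSC arrays were above both ESC arrays, and the Mstn-null arrays were above the WT arrays.

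Egr1, a zinc-finger transcription factor, was at 6.35 and 5.40 in Mstn-null MDSC, at 5.75 and 5.33 in WT MDSC, and at 3.97 and 1.68 in ESC. MDSC were higher by 2.88 ± 0.70 (SE; adjusted p = 0.0197). Fosl1 was at 1.32 and 0.74 in Mstn-null MDSC, at 0.85 and 2.31 in WT MDSC, and at -0.21 and -1.84 in ESC, a difference of 2.33 ± 0.63 (SE; adjusted p = 0.0275). In both genes the groups did not overlap, but the arrays of a group lay up to 2.30 apart. The Egr1 call was lost without Mstn-null isolation 1 (adjusted p = 0.0518) and without WT isolation 1 (adjusted p = 0.0549), and without ESC passage 15 its difference was 1.73. The Fosl1 call was lost without either Mstn-null isolation, without WT isolation 2 (adjusted p = 0.0516 to 0.0702 over these 3) and without ESC passage 15, where the difference was 1.51 (adjusted p = 0.137).

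Fos was at 5.31 and 5.17 in Mstn-null MDSC, at 5.20 and 3.87 in WT MDSC, and at 3.32 and -0.86 in ESC. MDSC were higher by 3.66 ± 1.21 (SE; adjusted p = 0.0489), a call at the edge of the threshold. It was lost under 10 of 17 alternatives, with adjusted p = 0.0562 to 0.115. These included leaving out any 1 MDSC array and leaving out ESC passage 15, which moved the difference to 1.57. The Fos probe was printed at 10 spots, and within an array their log2 levels had an SD of 0.0163 to 0.0675, while the ESC arrays differed by 4.19. The spots measure the array alone and not the spread between cultures.

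The other 4 genes were not called. Fosb was at 4.01 and 3.61 in Mstn-null MDSC, at 3.79 and 2.56 in WT MDSC, and at 3.22 and -2.02 in ESC, a difference of 2.89 ± 1.48 (SE; adjusted p = 0.147). ESC passage 12 lay among the MDSC arrays and passage 15 far below them. Jun, the main partner of Fos in AP-1, was at 4.92 and 4.72 in Mstn-null MDSC, at 5.00 and 4.30 in WT MDSC, and at 4.35 and 2.68 in ESC, with a difference of 1.22 ± 0.51 (SE; adjusted p = 0.0935). It too overlapped through passage 12.

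Jund, a Jun family gene expressed broadly in resting cells, was at 4.71 and 4.97 in Mstn-null MDSC, at 5.15 and 4.46 in WT MDSC, and at 4.48 and 4.88 in ESC. Its difference was 0.14 with a 95% interval of -0.53 to 0.82, so the groups overlapped fully. Atf3, a stress-induced factor that pairs with Jun proteins, was at 1.43 and 2.46 in Mstn-null MDSC, at 0.89 and -0.13 in WT MDSC, and at 1.31 and -0.04 in ESC. Its difference was 0.53, with an interval of -0.90 to 1.95. The WT and ESC arrays overlapped in Atf3. Over the 10 genes, 6 had every MDSC array above both ESC arrays, a pattern shown by 33.0% of all tested features.

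**Figure D2:**
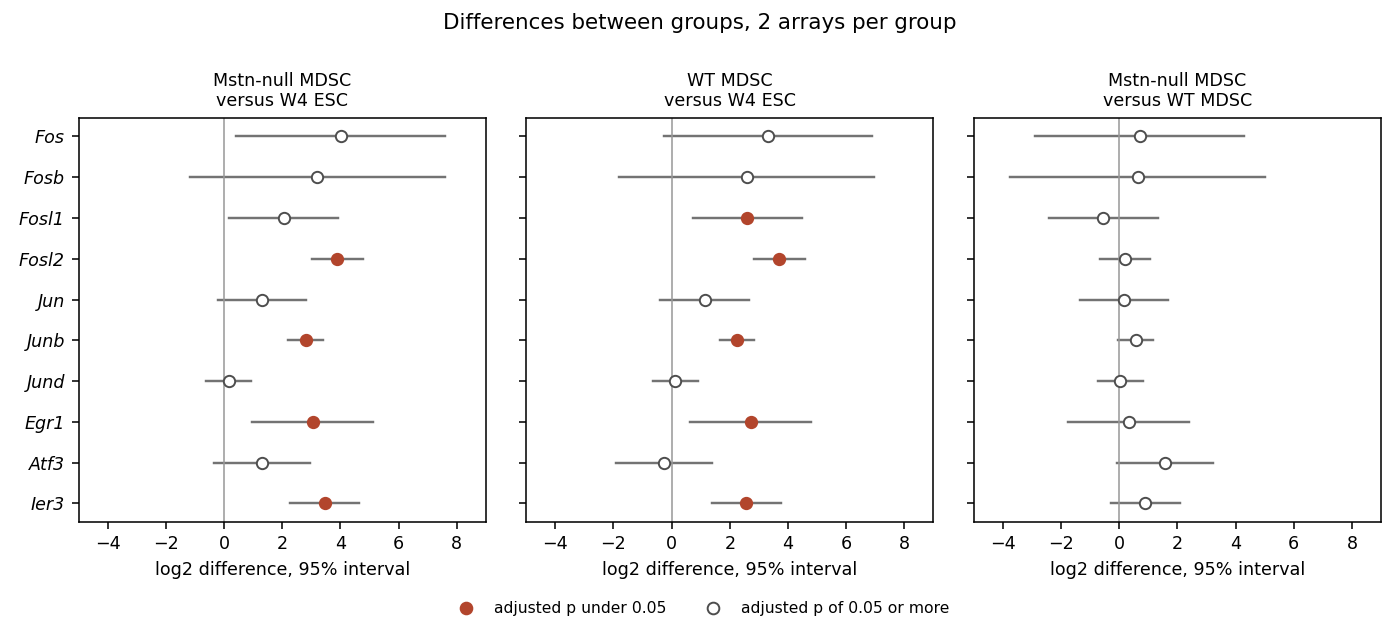
Log2 difference of each gene with its 95% interval (x axis) in 3 comparisons of 2 arrays against 2. Filled points mark an adjusted p under 0.05. Fosl2, Junb, Egr1 and Ier3 are filled against ESC in both genotypes, and no gene is filled between the genotypes.

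Each MDSC genotype was also set against the same 2 ESC arrays. In Mstn-null MDSC 4 of 10 genes were higher than in ESC, namely Fosl2, Junb, Egr1 and Ier3, and 0 were lower. Among all features 23.3% were higher and 30.8% were lower. In WT MDSC the same 4 genes and Fosl1 were higher, 5 of 10, and 0 were lower, beside 27.1% and 25.9% of all features. The WT call of Egr1 was near the threshold (adjusted p = 0.0405) and held in 7 of 17 alternatives, with adjusted p up to 0.145. Because the ESC arrays are shared, the values are given side by side. Fosl2 exceeded ESC by 3.90 in Mstn-null MDSC and by 3.70 in WT MDSC. Junb exceeded ESC by 2.80 in Mstn-null MDSC and by 2.24 in WT MDSC, and Ier3 by 3.46 in Mstn-null MDSC and by 2.57 in WT MDSC. For Egr1 the difference was 3.05 in Mstn-null MDSC and 2.72 in WT MDSC. Fos exceeded ESC by 4.01 in Mstn-null MDSC (adjusted p = 0.0609) and by 3.31 in WT MDSC (adjusted p = 0.10), and passed in neither.

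Between the genotypes, 0 of 10 genes were called at an adjusted p under 0.05 by limma, 0 of 10 had an unadjusted p under 0.05, and 0% of all features were called (3671 had an unadjusted p under 0.05). In 4 genes, Fosl2, Junb, Atf3 and Ier3, both arrays labelled Mstn-null lay above both WT arrays, as did 16.6% of all tested features. Atf3 differed most, by 1.56 with an interval of -0.08 to 3.21 (adjusted p = 0.365). Ier3 differed by 0.90, with an interval of -0.29 to 2.09 (adjusted p = 0.474), and Junb by 0.56, with an interval of -0.03 to 1.15 (adjusted p = 0.363). The intervals of Fos, -2.88 to 4.29, and Fosb, -3.76 to 5.02, were too wide to place a difference. WT isolation 2 stood apart from isolation 1. It was 1.33 below WT isolation 1 for Fos and 1.23 below for Fosb, but 1.46 above it for Fosl1.

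Marker lists of other cells are given beside these values. Between the genotypes 0 of 11 macrophage and immune markers and 0 of 12 muscle differentiation markers were called, as were 0% of all features. An unadjusted limma p under 0.05 was found for 10 of the 11 and 2 of the 12, beside 3671 of 25055 features. The median differences, Mstn-null minus WT, were 3.62 for the macrophage and immune markers and -2.19 for the muscle differentiation markers. The 11 macrophage and immune markers had a mean level of 1.73 and 3.49 on the arrays labelled Mstn-null, against 0.08 and -1.35 on the WT arrays, and 11 and 11 of them were well above background on the arrays labelled Mstn-null, against 11 and 10 on the WT arrays. The 12 muscle differentiation markers averaged 0.09 and -0.32 on the arrays labelled Mstn-null, against 3.56 and 0.31 on the WT arrays, so WT isolation 1 alone stood apart. Their part in the values of the 10 genes was not tested.

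The ESC passages stood apart for the Fos genes. Passage 12 exceeded passage 15 by 5.24 for Fosb, a 37.7-fold difference, and by 4.19 for Fos, an 18.2-fold difference. Of 14458 named genes above background on both arrays, 7, or 0.0484%, differed by at least as much as Fosb, itself included, and 19, or 0.131%, by at least as much as Fos. Egr1 differed by 2.30, and 1.1% of named genes by at least as much. Jun differed by 1.67, Fosl1 by 1.63, Atf3 by 1.35 and Ier3 by 1.16. Fosl2 differed by 0.96 and Junb by 0.37, while Jund was 0.41 lower at passage 12. Hence 7 of 10 genes were at least 1 log2 unit higher at passage 12, beside 3.8% of named genes, and the median size of the difference was 0.27 over all named genes. With 1 array per passage this difference has no replicate check.

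**Figure D3:**
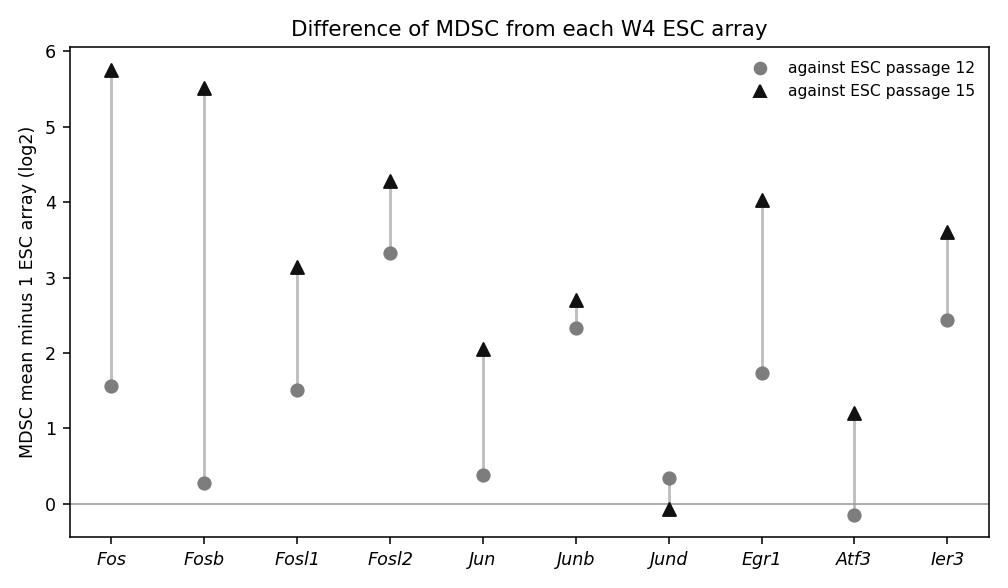
Mean of the 4 MDSC arrays minus the level on 1 ESC array (y axis, log2) for each gene, with circles for ESC passage 12 and triangles for passage 15. Fosb differs from MDSC by 0.28 against passage 12 and by 5.51 against passage 15, whereas Junb differs by 2.34 and by 2.70.

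How far several genes stood from MDSC differed with the ESC array. The MDSC mean of Fos exceeded passage 12 by 1.57 and passage 15 by 5.75. For Fosb the gaps were 0.28 and 5.51, and for Jun 0.39 and 2.06. For Junb they were 2.34 and 2.70, and for Fosl2 3.32 and 4.28. Without passage 12, 8 of the 10 genes were called higher, all but Jund and Atf3, and Fosb (adjusted p = 0.00635) and Jun (adjusted p = 0.016) joined the called genes. In that fit 22.6% of all features were higher. Without passage 15, 4 were called, Fosl2, Junb, Ier3 and Egr1, beside 20.4% of all features. Leaving out 1 MDSC array instead left its genotype with 1 array, and fewer of the 10 genes and of all features were called. With 1 ESC array left, that array is assumed to vary like the other groups.

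Part of the fibroblast and matrix markers differed between the same arrays. The 12 fibroblast markers had a mean level of 5.39 to 6.61 in MDSC, against 2.29 at ESC passage 12 and 0.21 at passage 15. All 12 were well above background at passage 12 and 11 at passage 15. Of these 11, 9 were higher and 2 lower at passage 12, with a median difference of 0.45, and 5 were higher by at least 1. Dcn, Pdgfra, Col3a1, Ly6a and Col1a2 were higher at passage 12 by 5.01, 4.12, 3.29, 3.00 and 1.45. Lum, at 2.14 at passage 12, was the marker not above background at passage 15. Col1a1, Fn1, Pdgfrb and Thy1 were higher by 0.22 to 0.45, and Postn and Lox were lower, with differences of -0.75 and -0.66. Apart from Dcn, Lox, Postn and Ly6a, these markers were named after their values were seen. The markers of pluripotent cells stayed within 0.15 of each other on average, at 4.63 and 4.78. The part of the fibroblast signal in the levels of Fos, Fosb and the other genes was not tested.

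Promoter windows were read from RefSeq (GRCm38.p6), covering 250 bases before and 50 after the start, for 8 of the 10 genes. Fosl1 and Egr1 had no match. Windows are shown for Fos and Fosb, which lay farthest apart between the ESC passages, and for Fosl2 and Junb. Those of Fosl2 and Junb are shown because these genes separated MDSC from both passages, as Fos did too. Fos is at chr12:85473640-85473939 on the plus strand, Fosb at chr7:19309996-19310295 on the minus strand, Fosl2 at chr5:32136222-32136521 on the plus strand and Junb at chr8:84978699-84978998 on the minus strand. Capitals mark TGACG, the core shared by CREB elements, and TATAAA, the letters of a TATA box.

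Fos: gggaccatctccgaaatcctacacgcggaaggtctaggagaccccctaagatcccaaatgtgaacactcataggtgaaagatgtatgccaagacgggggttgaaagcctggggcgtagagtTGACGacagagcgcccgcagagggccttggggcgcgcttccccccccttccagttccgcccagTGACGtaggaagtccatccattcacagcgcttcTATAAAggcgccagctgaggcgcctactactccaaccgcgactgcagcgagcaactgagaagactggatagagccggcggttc
Fosb: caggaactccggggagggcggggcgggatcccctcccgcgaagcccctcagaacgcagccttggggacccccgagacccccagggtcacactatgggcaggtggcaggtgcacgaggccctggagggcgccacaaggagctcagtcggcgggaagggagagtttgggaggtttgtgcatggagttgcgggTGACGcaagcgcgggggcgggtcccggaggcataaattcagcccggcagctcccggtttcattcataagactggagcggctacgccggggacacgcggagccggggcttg
Fosl2: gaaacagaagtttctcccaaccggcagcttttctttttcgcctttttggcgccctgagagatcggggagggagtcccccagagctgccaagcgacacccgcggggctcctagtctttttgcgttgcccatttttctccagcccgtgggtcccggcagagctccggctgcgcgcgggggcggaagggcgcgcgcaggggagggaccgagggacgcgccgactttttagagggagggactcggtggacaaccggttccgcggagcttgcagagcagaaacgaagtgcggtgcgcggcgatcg
Junb: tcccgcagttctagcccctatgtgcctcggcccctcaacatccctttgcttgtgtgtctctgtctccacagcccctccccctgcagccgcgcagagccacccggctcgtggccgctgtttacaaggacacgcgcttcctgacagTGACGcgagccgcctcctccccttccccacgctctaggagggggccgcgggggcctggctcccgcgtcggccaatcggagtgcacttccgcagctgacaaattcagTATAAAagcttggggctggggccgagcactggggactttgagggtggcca

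TGACG occurred on either strand in 4 of 8 windows, those of Fos, Fosb, Junb and Atf3, and in 20.8% of all 32851 windows of this length. In Fos it began 129 and 66 bases before the start, in Fosb 60 bases before it and in Junb 106 bases before it. TATAAA occurred in 2 of 8 windows and in 13.6% of all windows. In Fos it began 33 bases before the start, and in Junb it lay at bases 1 to 6 from the start itself, not before it. The Fosl2 window had neither. The 8 windows held no match to the serum response element core known as the CArG box (1.63% of all windows), to the AP-1 site TGANTCA (7.81%), to the full CREB element TGACGTCA (1.79%) or to the ETS core CCGGAAG (8.86%). Sites farther from the start and variants of these patterns were not searched. The Jun window, for example, holds TGACATCA, which none of these patterns matches. These letters are a description of the windows and no evidence of binding or of its absence.

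Profiles over the 6 arrays were compared by the root mean square difference after centring each gene. Among the 10 genes, Junb and Ier3 were closest at 0.37, followed by Fos and Fosb at 0.48, and Fos and Jund were farthest apart at 2.15. Among 12795 named genes above background on all 6 arrays, the profiles nearest to Junb were Pros1 and Ifnar2 (0.0992 and 0.106), and the nearest to Fosl2 was Prss12 (0.101). The nearest to Ier3 was Colec12 (0.176), to Jund Slc2a8 (0.0765) and to Jun C1rl (0.218). Fos was nearest to Lama4 (0.478) and Fosb to Tcim (0.654), at larger distances. Such distances grow with the range of a gene over the arrays. The correlations of these pairs were 0.976 and 0.983, against 0.953 for Jund and Slc2a8. Fos and Jun, at a distance of 1.39, correlated at 0.991. Egr1 was nearest to Pear1 (0.28), Fosl1 to Apln (0.227) and Atf3 to Dock4 (0.275).

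The other genes of the pathway were taken as lists. Of 17 other AP-1 and basic leucine zipper partners, 11 were higher and 3 lower in MDSC than in ESC, with a median difference of 1.09. Among all tested features 28.3% were higher and 31.4% were lower. Maf, a large Maf factor of the lens lineage among others, was higher by 4.75, and Atf5 by 3.33. Batf3, Atf2 and Atf1 were lower, with differences of -1.63, -0.74 and -0.64.

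Of 31 other immediate early genes tested, 19 were higher and 2 lower, beside 28.3% and 31.4% of all features. Their median was 1.30. Nr4a2, an orphan nuclear receptor, was at 2.14 and 3.72 in Mstn-null MDSC, at 4.40 and 2.87 in WT MDSC, and at -0.50 and -3.16 in ESC, a difference of 5.11. Egr2, a relative of Egr1, differed by 4.75, and Ptgs2, the inducible cyclooxygenase, by 3.78. Klf2 and Klf10, Krüppel-like factors, were lower, with differences of -2.59 and -1.02. Between the ESC passages, Egr2 and Nr4a2 were 3.36 and 2.66 higher at passage 12, whereas Ccn2 and Myc were 1.52 and 1.06 higher at passage 15 (the last 2 named after their values were seen). In all, 19 of 31 were higher at passage 12, against 9 of 10 of the genes described and 36.5% of named genes.

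Genes that signal to AP-1 or switch the response off were called in both directions, where 28.3% of all features were higher and 31.4% lower. Of 15 MAPK phosphatases and feedback inhibitors, 4 were higher and 4 lower (26.7% each), with a median of -0.09. Dusp1, a phosphatase that is itself an early gene, was higher by 2.45 and Dusp10 by 1.87, while Spry4 and Spry2, inhibitors of receptor signalling, were lower, with differences of -2.79 and -1.88. Of 22 upstream kinases and serum response or ternary complex factors, 6 were higher and 4 lower (27.3% and 18.2%). Elk3 was higher by 2.06 and Mrtfa, a coactivator of serum response factor, by 1.63. Rps6ka1, a kinase downstream of ERK, was lower, with a difference of -3.57. Of 10 turnover and corepressor genes, 3 were higher and 4 lower (30% and 40%). The Egr corepressors Nab2 and Nab1 were higher by 2.76 and 2.67, and Fbxw7, a ubiquitin ligase component that acts on Jun, was lower, with a difference of -1.04.

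Of 21 AP-1 target genes, 13 were higher and 2 lower in MDSC, beside 28.3% and 31.4% of all features. Their median was 2.23. The cytokine Il6 was at 4.79 and 6.03 in Mstn-null MDSC, at 5.85 and 3.24 in WT MDSC, and at -1.06 and -3.70 in ESC, a difference of 7.36. Plau, which encodes urokinase, differed by 4.61, and Mmp13, a collagenase not well above background at ESC passage 15, by 5.03. Krt18, a keratin of simple epithelia well above background on 3 of 4 MDSC arrays, and Ezr, which encodes ezrin, were lower, with differences of -8.90 and -2.89. Several of these targets are also known from fibroblasts. The fibroblast markers were higher in 11 of 12 cases, beside 28.3% of all features, with a median of 5.05. Their part in the levels of the targets was not tested.

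**Figure D4:**
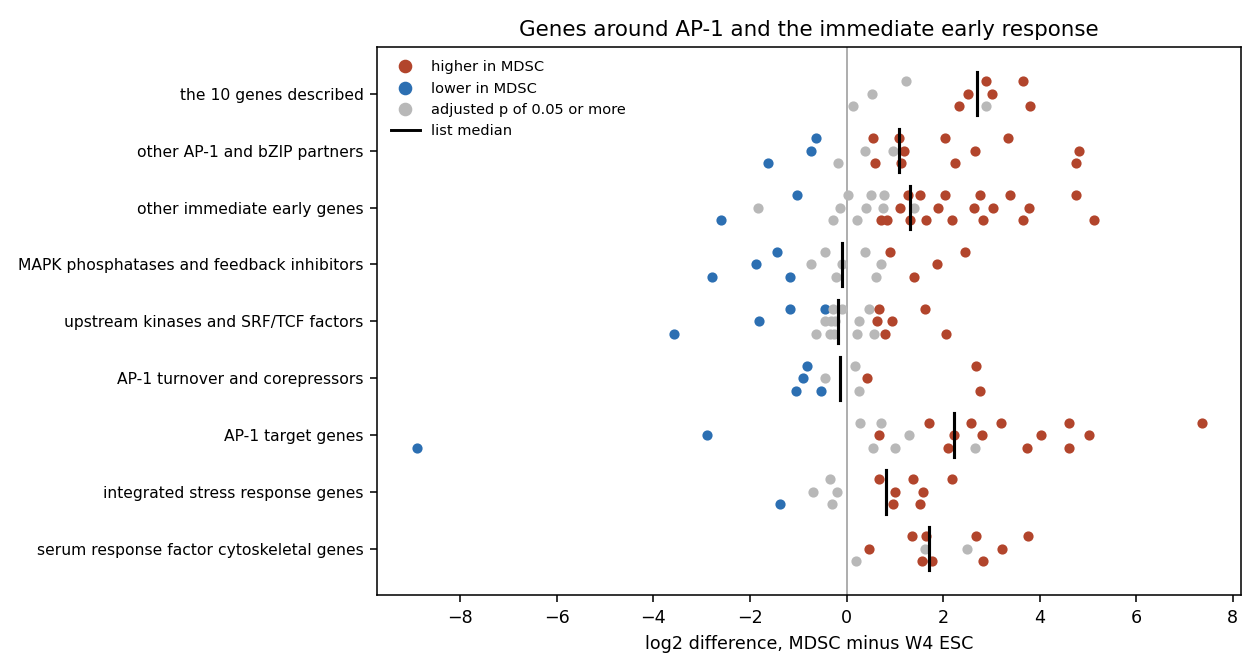
Log2 difference between MDSC and W4 ESC (x axis) for every tested gene of 9 lists, with 4 MDSC and 2 ESC arrays; red points were higher, blue points lower and grey points not called, and black bars are medians. The 10 genes, the zipper partners, the other immediate early genes, AP-1 targets and serum response factor cytoskeletal genes have medians above 1, and the phosphatases, upstream factors and turnover genes have medians within 0.18 of 0.

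Of 12 integrated stress response genes, which include targets shared with Atf3, 7 were higher and 1 lower, with a median of 0.81. Among all features 28.3% were higher and 31.4% were lower. Vldlr was higher by 2.19, Ppp1r15a by 1.59 and Ddit3 by 1.52, and Asns, the asparagine synthetase gene, was lower, with a difference of -1.37. Of 12 cytoskeletal genes driven by serum response factor, 9 were higher and 0 lower, beside the same shares of all features. Their median was 1.70. Fhl2, Acta2 and Myl9 differed by 3.75, 3.21 and 2.83. Between the ESC passages these genes ran opposite to Fos: 0 of 12 were higher at passage 12, beside 36.5% of named genes. Acta2 was at 3.73 at passage 12 and 6.30 at passage 15. Without passage 12 the cytoskeletal median was 1.29, and without passage 15 it was 2.70. The median of the 10 genes moved the other way, to 3.37 and 1.54. The medians of other lists are given in the same order, without passage 12 and then without passage 15. They were 2.9005 and 1.7097 for AP-1 targets, 1.1575 and 1.1134 for other immediate early genes, and 1.0352 and 1.1001 for zipper partners. For upstream factors they were -0.0991 and -0.0677, and for phosphatases -0.1023 and 0.1788. For turnover genes they were -0.3038 and -0.1236, and for stress response genes 0.6732 and 0.9514. Among all features the median was -0.0402 and -0.1177. No gene of these lists was called between the genotypes.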

How the data were processed

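Total RNA (0.5 µg) was labelled with Cy3 and hybridised to 1-colour arrays, and the deposited scanner files hold spot intensity values made with Agilent Feature Extraction 10.7.1.1, per the file headers (9.1 per the submitters' processing notes). The deposited processed intensity (background-subtracted signal) was put on a log2 scale here, relative to the 75th percentile of the array's own spots without controls. Spots flagged as outliers were dropped, spots of a probe were averaged, and the probe with the highest mean over 6 arrays stood for a gene. Probes were named by RefSeq accession. Genes were tested where at least 1 group had both arrays well above background (25055 of 37153) with limma 3.58.1 in R 4.3.3 over all 6 arrays, with 3 residual and 2.02 prior degrees of freedom. The code was tested on simulated data.

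The number of arrays, 2 per group, limits the precision. Alternatives were other scalings, normexp on the median and background median signals (offset 50), filters, probe rules, blocks, and leaving out each array. A fit of only the groups compared was another. For both MDSC groups against ESC, its place was taken by Mstn-null MDSC against ESC within their slide, so without WT. Same-numbered MDSC isolations deviated in opposite directions (correlation -0.40 over 25055 features), so the numbers did not pair them. The members and lists were chosen with earlier results of these data known. All 10 members were named, and from each other list up to 3 called genes with the largest differences in each direction, except where stated and for 1 gene that is not reported here. Coordinates are those of RefSeq GRCm38.p6.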

Additional observations from a re-analysis of the deposited data

How the results depend on the processing

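Fosl2, Junb and Ier3 stayed higher in MDSC than in ESC under all 17 alternatives in the 3 ESC comparisons. With both MDSC groups set against ESC, Egr1 was called in 15 of 17, Fosl1 in 12 and Fos in 7; Jun was called with median centring (adjusted p = 0.0355) and without ESC passage 12. The count of called genes, 6, became 3 to 8 with 1 array left out, 3 without Mstn-null isolation 1. For Mstn-null MDSC against ESC it was 4, 3 to 8 with 1 array left out and 7 with median centring, and all called features were 7972 to 12910 instead of 13572. For WT MDSC against ESC it was 5, 3 to 8 with 1 array left out, 3 with the replicate block and 3 with only the groups compared. Median centring moved the median of all features by 0.14, 0.22 and 0.06 in the 3 ESC comparisons and by 0.16 between genotypes, and changed the Mstn-null split from 5849 higher and 7723 lower to 6252 higher and 5471 lower. Between genotypes no member was called under any alternative; all features called were 25 with quantile normalization and 177 with a crossed replicate block added after the data were seen. With 1 array left out, signs turned for Jund (-0.0603 to 0.35) and Atf3 (-0.15 to 1.20) in MDSC against ESC, for Jund in Mstn-null MDSC (-0.0426 to 0.36), for Fosb (-0.041 to 5.19), Jund (-0.22 to 0.47) and Atf3 (-0.93 to 0.42) in WT MDSC against ESC, and for Fosl1 (-1.28 to 0.18), Jun (-0.18 to 0.52), Jund (-0.31 to 0.38) and Egr1 (-0.14 to 0.80) between genotypes, none of them called between genotypes. The cause of these changes was not tested. Slide could not be told apart from WT.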
